A study of Homo sapiens with 480 samples.

Results

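A set of 10 classical genes of the interferon response were followed in single Jurkat and J-Lat A2 cells: IFIT1, IFIT2, IFIT3, ISG15, IFI6, IFI16, OAS1, GBP2, IRF1 and IRF7. They were chosen by name, with earlier results of these data known, and all 10 were among the 20301 genes of the deposited table. Jurkat cells stem from a human CD4 T cell leukaemia. J-Lat A2 is a single clone of them that carries an integrated HIV-derived construct with a green fluorescent reporter. The groups were J-Lat A2 cells with 1 uM SAHA (suberoylanilide hydroxamic acid, a histone deacetylase inhibitor), with 1 ug/mL of the phorbol ester PMA (an activator of protein kinase C) or with 0.1% v/v DMSO, the vehicle, and Jurkat cells with the same 3 additions, each for 24 h. Single cells were sorted into 480 wells of 5 plates in 2 batches, and 410 wells with enough counts and genes were kept. Of the 70 wells left out, 66 were J-Lat A2 wells with SAHA (32.8% of that group), 2 were J-Lat A2 wells with PMA and 2 with DMSO. The part of this loss in the results with SAHA was not tested beyond the fits with all 480 wells given below. J-Lat A2 cells with SAHA kept 67 wells in the first batch and 68 in the second, those with PMA kept 79 in all and those with DMSO 94. Jurkat cells with SAHA, PMA and DMSO kept 36, 36 and 30 wells. J-Lat A2 cells with SAHA and both lines with DMSO were on all 5 plates, whereas the other groups were on the 3 plates of the second batch.

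Interferons bind receptors at the cell surface, and JAK kinases then phosphorylate STAT proteins, which enter the nucleus with the factor IRF9 or as dimers and switch on a set of antiviral genes. Interferon regulatory factors (IRFs) act both upstream, at the interferon genes, and downstream, at the antiviral genes. In T cells this programme includes proteins that restrict HIV, and some of its genes can also be switched on by IRFs without secreted interferon.

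Interferon-responsive promoters are known for short IRF-type elements of the form GAAANNGAA and STAT-type elements of the form TTCNNNGAA. RefSeq windows (GRCh38.p14, 250 bases before to 50 bases after a gene's start) were found for 7 of the 10 genes, which had 9 windows between them. Those of IFIT1, IFI6, ISG15 and IRF1 are printed below, up to the base before the start and 5′ to 3′ on the gene's strand. IFIT1, IFI6 and IRF1 changed with SAHA in J-Lat A2 cells, whereas ISG15, which holds the same element as IFIT1 and IFI6, did not pass the test. IFI16 also changed with SAHA, and the matches in its windows are counted below but not printed. Capitals mark each match to either element, on either strand, and matches may overlap.
IFIT1, chr10:89392373-89392622, + strand: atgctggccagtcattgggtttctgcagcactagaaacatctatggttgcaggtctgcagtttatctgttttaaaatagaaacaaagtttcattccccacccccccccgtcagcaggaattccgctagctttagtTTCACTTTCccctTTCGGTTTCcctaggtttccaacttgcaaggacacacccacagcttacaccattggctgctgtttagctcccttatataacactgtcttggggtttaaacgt
IFI6, chr1:27672193-27672442, - strand: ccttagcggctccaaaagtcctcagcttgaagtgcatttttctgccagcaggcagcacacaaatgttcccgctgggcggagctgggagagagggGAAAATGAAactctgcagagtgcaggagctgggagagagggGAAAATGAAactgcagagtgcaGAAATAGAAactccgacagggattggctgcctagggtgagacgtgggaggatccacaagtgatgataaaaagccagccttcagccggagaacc
ISG15, chr1:1013247-1013496, + strand: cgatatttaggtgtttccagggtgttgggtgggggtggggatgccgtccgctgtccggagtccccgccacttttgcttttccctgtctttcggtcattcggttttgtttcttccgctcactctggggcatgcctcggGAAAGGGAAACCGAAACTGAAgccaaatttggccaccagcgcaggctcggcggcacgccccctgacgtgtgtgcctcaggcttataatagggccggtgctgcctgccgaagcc
IRF1, chr5:132490774-132491023, - strand: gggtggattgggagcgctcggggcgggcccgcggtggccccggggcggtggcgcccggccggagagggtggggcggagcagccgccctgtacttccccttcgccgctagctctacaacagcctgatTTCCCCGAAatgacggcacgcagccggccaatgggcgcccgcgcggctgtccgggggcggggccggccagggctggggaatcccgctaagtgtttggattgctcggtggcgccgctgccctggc
IFIT1 held 2 IRF-type matches, IFI6 held 3 and ISG15 held 3 that overlap one another, and none of these windows held the STAT type. IRF1 held 1 STAT-type match and no IRF-type match. Of the windows not printed, those of IFIT3 held 2 and 3 IRF-type matches, those of IFI16 held 0 and 1, and that of OAS1 held 1 STAT-type match. Among 35116 windows of the same length, 8.11% held the IRF type and 0.701% held it at least 2 times, while 7.66% held the STAT type. A match is a string of letters and not a measured binding site.

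The kept wells had 19756 to 984418 counts, and group medians of genes per well ran from 4458 in J-Lat A2 cells with SAHA to 6093 in Jurkat cells with DMSO. All 9 T cell markers on a list of such genes had reads in every group. Their summed level was 528 CPM (the count scaled to library depth) with SAHA, 3613 with PMA and 2156 with DMSO in J-Lat A2 cells. The same sums were 542, 4147 and 2172 CPM in Jurkat cells with SAHA, PMA and DMSO. Of 3 plasmacytoid dendritic cell and 3 erythroid markers at most 1 each had a read in any group, with sums of 0 to 2.23 CPM. Of 4 B cell markers 1 had reads (sums of 0.312 to 88.9 CPM), as did 1 to 3 of 6 myeloid markers (1.77 to 23.8 CPM) and 1 to 3 of 4 NK cell markers (3.03 to 11.8 CPM). Reads of the integrated construct were found in 72.6% of J-Lat A2 wells with SAHA and 69.6% with PMA, against 5.32% with DMSO, and in 4 Jurkat wells, which lack it. Whether these differences between wells have a part in the results on the interferon genes was not tested.

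With SAHA, IFIT1 and IFI6 rose and IFI16 fell in both lines, and IRF1 fell in J-Lat A2 cells. With PMA, GBP2 was higher than with DMSO in both lines, where it was read in a minority of wells, and no other of the 10 genes passed the test against DMSO. ISG15 had reads in most wells of every group, and IFIT2, IFIT3, OAS1 and IRF7 were sparse in all of them. The plot of plate sums shows all 10 genes. Levels are CPM of the summed wells, normalised by TMM (trimmed mean of M values, a scaling between sums), and are not divided by gene length, so they are compared between groups and not between genes.

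**Figure D1:**
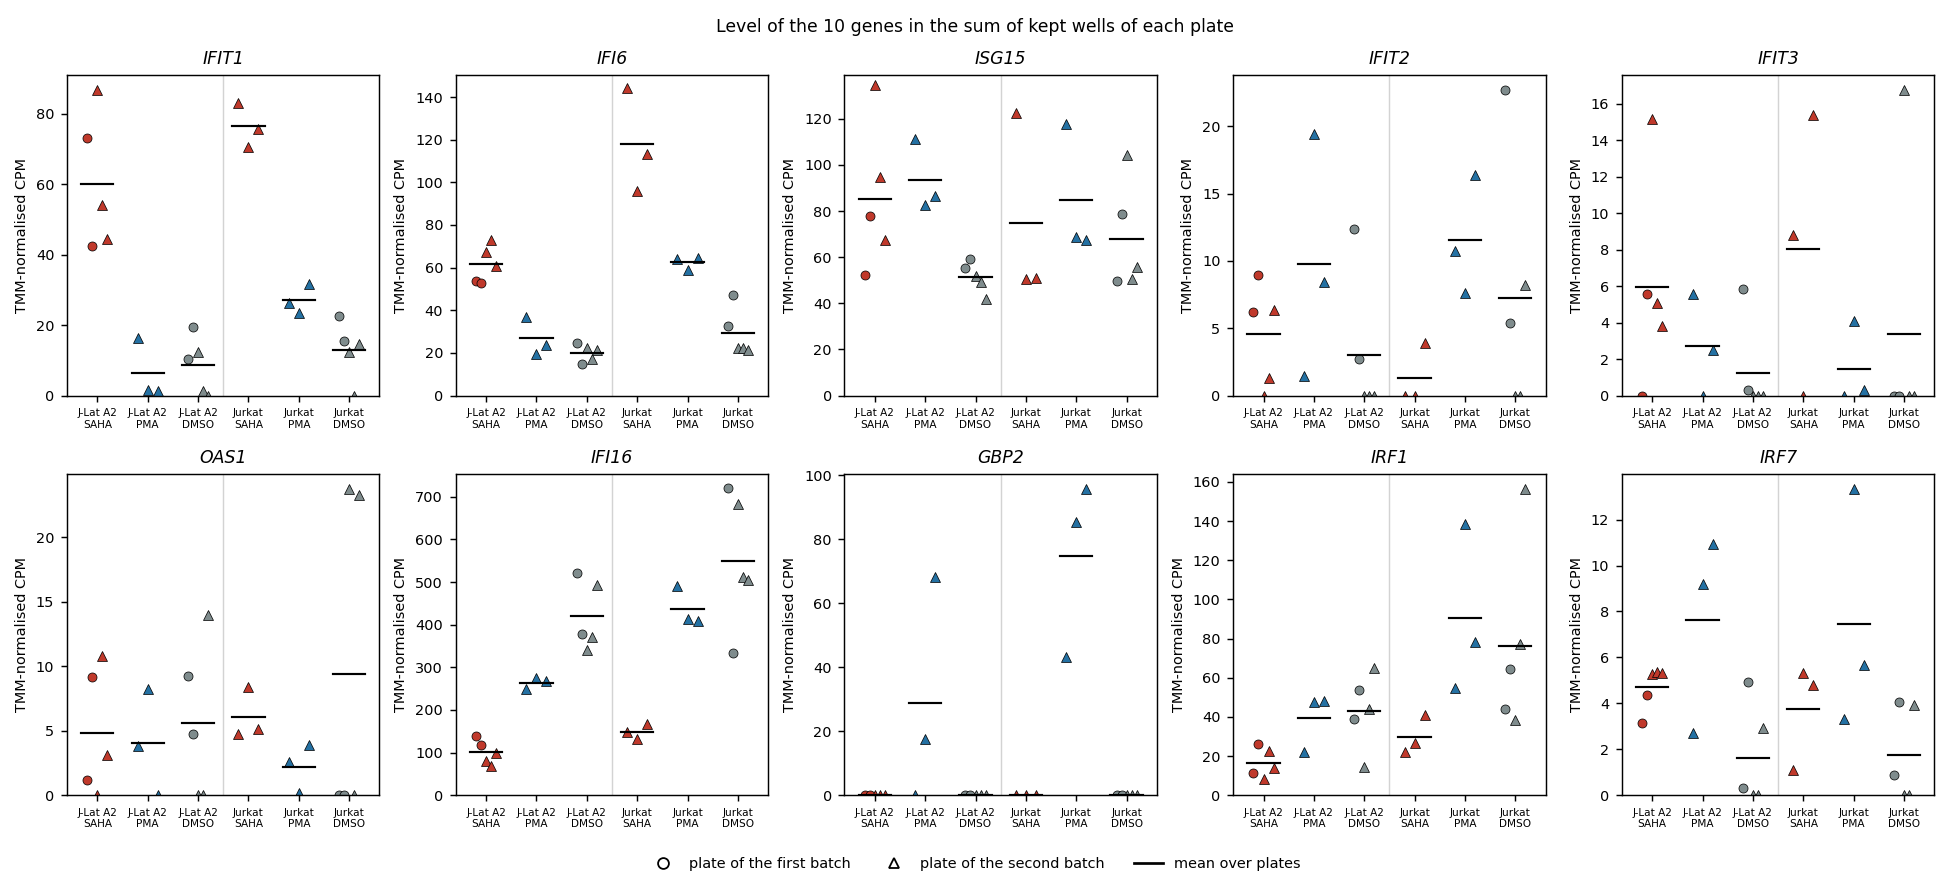
Level of each gene (TMM-normalised CPM, linear axis from 0) in the sum of the kept wells of each plate, by group; circles are plates of the first batch, triangles of the second, and bars are means over plates. IFIT1 and IFI6 are highest with SAHA in both lines, IFI16 is lowest with SAHA, and GBP2 is near 0 outside the PMA groups.

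IFIT1, whose protein binds viral RNA that lacks the host's cap methylation, had 73.1, 42.5, 86.8, 53.96 and 44.6 CPM in the 5 plate sums of J-Lat A2 cells with SAHA, against 10.5, 19.4, 12.2, 1.37 and 0 CPM with DMSO. It had 82.98, 70.7 and 75.8 CPM in Jurkat cells with SAHA, against 22.7, 15.5, 12.3, 0 and 14.7 CPM with DMSO. In both lines every plate with SAHA lay above every plate with DMSO. Over the sums per batch the means were 60.8 ± 0.764 CPM with SAHA and 8.68 ± 5.21 CPM with DMSO in J-Lat A2 cells (SD, n = 2 batches each). The log2 change was 2.99 ± 0.49 (SE; adjusted p = 0.00576) in J-Lat A2 cells and 2.92 ± 0.59 (adjusted p = 0.0239) in Jurkat cells, by edgeR's quasi-likelihood test with Benjamini-Hochberg adjustment over all genes tested.

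The rise was also one of wells with a read. IFIT1 was read in 46 J-Lat A2 wells with SAHA (34.1%, 95% Clopper-Pearson interval 26.1 to 42.7), against 11 wells with DMSO (11.7%, 5.99 to 20.0). In Jurkat cells it was read in 28 of 36 wells with SAHA (77.8%, 60.8 to 89.9), against 8 of 30 with DMSO (26.7%, 12.3 to 45.9). Among wells with a read, the median level was 130.3 CPM with SAHA and 102.96 CPM with DMSO in J-Lat A2 cells, and 81.9 and 36.9 CPM in Jurkat cells. J-Lat A2 wells with a read were thus a minority with SAHA but not of low level, as the plot of single wells shows. The shares kept their order when each well was thinned to 100000 counts (39.3% with SAHA and 10.99% with DMSO in J-Lat A2 cells, and 27 of 36 wells and 8 of 30 in Jurkat cells). Intervals from counts cover counting error only, since several reads may stem from 1 molecule.

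**Figure D2:**
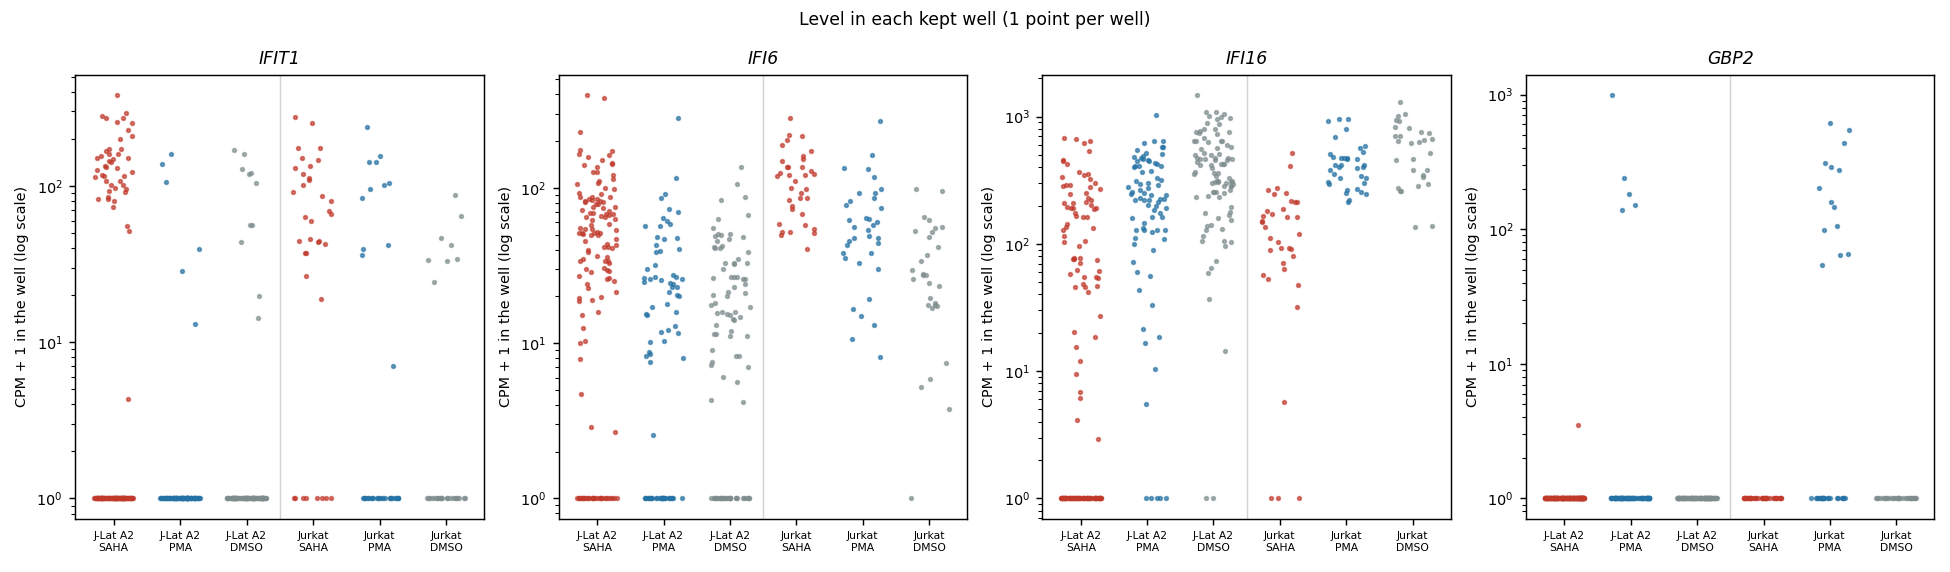
Level in each kept well (CPM + 1, log axis; wells without a read at 1) for 4 genes, by group. IFIT1 is read in 34.1% of J-Lat A2 wells and 77.8% of Jurkat wells with SAHA, IFI6 and IFI16 shift in level over most wells, and GBP2 is read in 5 of 79 J-Lat A2 wells and 14 of 36 Jurkat wells with PMA.

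IFI6, a small membrane protein with antiviral activity, had 53.9, 52.8, 67.5, 73.01 and 60.997 CPM in the plates of J-Lat A2 cells with SAHA, against 24.9, 14.8, 22.3, 17.1 and 21.4 CPM with DMSO. In Jurkat cells it had 144.1, 96.2 and 113.3 CPM with SAHA, against 32.7, 47.1, 22.5, 22.1 and 21.3 CPM with DMSO. The plates of SAHA and DMSO did not overlap in either line. Its log2 change was 1.49 ± 0.36 in J-Lat A2 cells (adjusted p = 0.0311, edgeR) and 2.06 ± 0.46 in Jurkat cells (adjusted p = 0.0349). Reads of IFI6 were found in 78.5% of J-Lat A2 wells with SAHA, against 68.1% with DMSO, and in 100% of Jurkat wells with SAHA, against 96.7% with DMSO. Among wells with a read its median was 55.4 CPM with SAHA and 22.6 CPM with DMSO in J-Lat A2 cells, and 113.6 and 26.6 CPM in Jurkat cells.

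IFI16, a sensor of foreign DNA that has been linked to the restriction of HIV, moved the other way. It had 138.7, 118.2, 80.96, 68.8 and 98.9 CPM in the plates of J-Lat A2 cells with SAHA, against 522.1, 378.4, 339.9, 371.5 and 492.5 CPM with DMSO. Jurkat cells had 149.1, 132.2 and 166.6 CPM with SAHA, against 720.5, 332.4, 682.2, 511.6 and 503.7 CPM with DMSO. The groups did not overlap, and the log2 change was -2.09 ± 0.19 in J-Lat A2 cells (adjusted p = 0.000266, edgeR) and -1.83 ± 0.25 in Jurkat cells (adjusted p = 0.00419). Reads of IFI16 were found in 71 J-Lat A2 wells with SAHA (52.6%, 43.8 to 61.2), against 92 wells with DMSO (97.9%, 92.5 to 99.7). Among J-Lat A2 wells with a read the median was 161.1 CPM with SAHA and 379.2 CPM with DMSO. In Jurkat cells 33 of 36 wells had a read with SAHA, against 30 of 30 with DMSO, and the medians were 148.5 and 624.4 CPM. Both the share of wells with a read and the level within them were thus lower with SAHA in J-Lat A2 cells, and in Jurkat cells mainly the level.

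IRF1, a transcription factor that interferon induces and that switches on many genes of the response, had 11.5, 25.9, 8.50, 22.6 and 13.7 CPM in J-Lat A2 plates with SAHA, against 39.1, 53.8, 14.5, 43.8 and 65.01 CPM with DMSO. The lowest plate with DMSO lay within the range of the plates with SAHA, and on each of the 5 plates the level was lower with SAHA. The log2 change was -1.39 ± 0.37 (adjusted p = 0.0461, edgeR). In Jurkat cells IRF1 had 22.001, 26.9 and 40.8 CPM with SAHA, against 43.9, 64.6, 38.4, 77.3 and 156.6 CPM with DMSO. That difference, a log2 change of -1.41 ± 0.48, did not pass the test (adjusted p = 0.154). Reads of IRF1 were found in 25.9% of J-Lat A2 wells with SAHA, against 50.0% with DMSO, and in 63.9% of Jurkat wells with SAHA, against 76.7% with DMSO.

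ISG15, a ubiquitin-like protein that is attached to other proteins in the response, had 52.3, 77.9, 134.6, 94.9 and 67.4 CPM in J-Lat A2 plates with SAHA, against 55.3, 59.3, 51.9, 49.3 and 41.7 CPM with DMSO. It was higher with SAHA on 4 of 5 plates, and its log2 change of 0.56 ± 0.29 did not pass the test (adjusted p = 0.311, edgeR). Jurkat plates had 122.4, 50.4 and 51.03 CPM with SAHA, against 49.8, 78.7, 104.2, 50.6 and 55.7 CPM with DMSO, and these overlapped (log2 change 0.11 ± 0.37, adjusted p = 0.991).

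In all, 4 of the 10 genes passed the test with SAHA in J-Lat A2 cells, where 8.43% of the 13558 genes tested did. In Jurkat cells 3 of the 10 passed, against 4.22% of all genes tested. The 10 genes were chosen with earlier results of these data known, so these counts are not independent evidence. The median log2 change of all genes was 0.12 in J-Lat A2 cells and 0.11 in Jurkat cells, and that of the 10 genes was 1.03 and -0.11. The last value became 0.11 when GBP2, which had no count in Jurkat cells with SAHA or DMSO, was left out, and that of J-Lat A2 cells became 0.56. The SAHA effects on the lines were compared in the same fit, and no difference passed for any of the 10 genes, where 0.00738% of all genes passed (edgeR). None of the 10 had an unadjusted p under 0.05, and DESeq2 also called 0. The difference in log2 change, J-Lat A2 minus Jurkat, was 0.06 ± 0.73 for IFIT1, -0.57 ± 0.57 for IFI6, -0.25 ± 0.29 for IFI16 and 0.02 ± 0.59 for IRF1, each with an adjusted p of 1.

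IFI16 passed without any 1 of the 6 batch sums that could be left out. IFIT1 in J-Lat A2 cells did not pass without the second-batch sum with DMSO (adjusted p = 0.0642), nor did IFIT1 or IFI6 in Jurkat cells without the second-batch DMSO sum of that line (adjusted p = 0.131 and 0.211). IFI6 in J-Lat A2 cells did not pass without the second-batch sum with SAHA (0.289), either DMSO sum (0.165 without the first batch and 0.176 without the second) or the shallow plate P2458 (0.0603). IRF1 in J-Lat A2 cells did not pass without any 1 of the 4 J-Lat A2 sums (adjusted p 0.0711 to 0.267), nor when all 480 wells were used (log2 change -1.13, adjusted p = 0.0879). The changes with all wells were 2.95 for IFIT1, 1.48 for IFI6 and -2.04 for IFI16 in J-Lat A2 cells, and these passed. In a fit that gave every well equal weight, no gene of the whole table passed, these included. The changes in mean log2(CPM + 1) per well in that fit kept their directions, with 1.74 for IFIT1, 1.38 for IFI6, -4.64 for IFI16 and -1.36 for IRF1 in J-Lat A2 cells, and 3.63 for IFIT1, 1.96 for IFI6 and -2.46 for IFI16 in Jurkat cells. With the second batch alone and its plates as units, the log2 changes in J-Lat A2 cells were 4.49 ± 1.32 for IFIT1 (adjusted p = 0.0448), 1.74 ± 0.32 for IFI6 (0.00256), -2.28 ± 0.18 for IFI16 (9.8e-07) and -1.33 ± 0.42 for IRF1 (0.0645). In Jurkat cells they were 3.40 ± 1.26 for IFIT1 (0.121), 2.40 ± 0.33 for IFI6 (0.00021) and -1.93 ± 0.18 for IFI16 (5.18e-06).

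**Figure D3:**
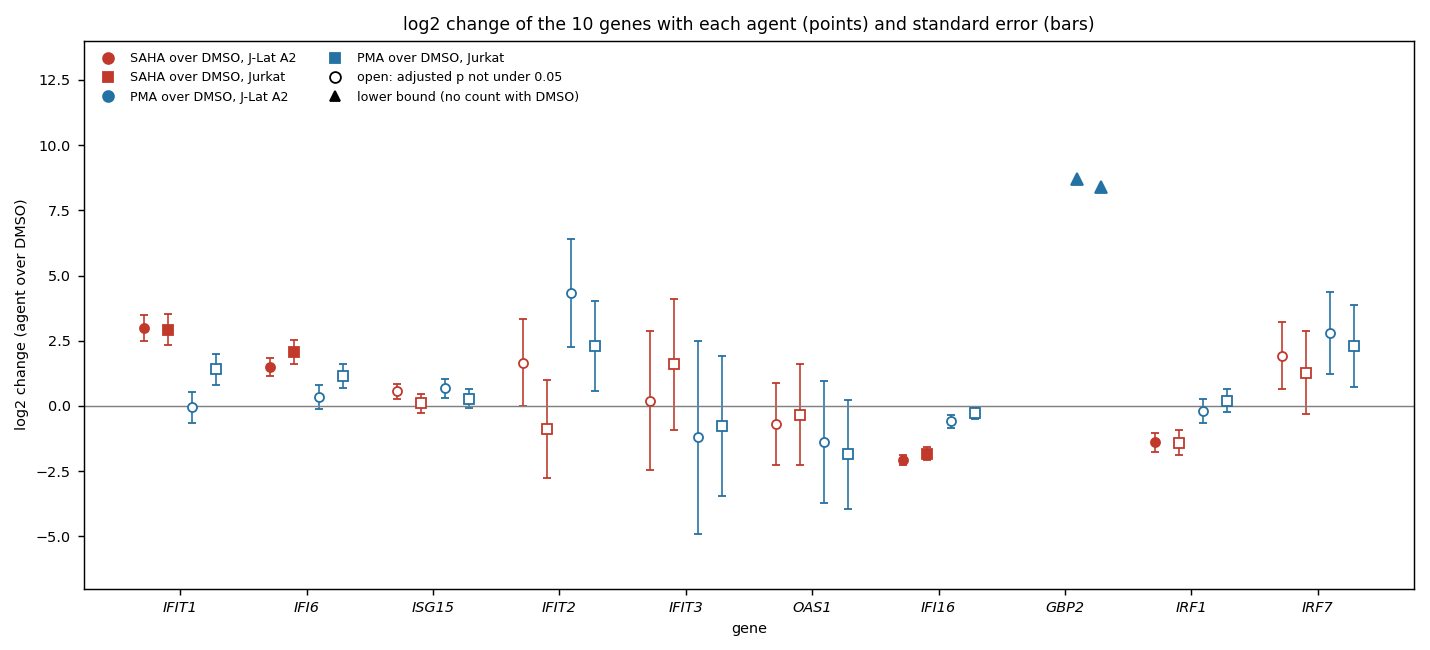
log2 change of each gene over DMSO with its standard error, for SAHA (red) and PMA (blue) in J-Lat A2 (circles) and Jurkat cells (squares). Filled symbols had an adjusted p under 0.05 (edgeR). Triangles are lower bounds in read counts, against an assumed floor of 3 counts where DMSO had no count. The changes with SAHA are near 3 for IFIT1 and near -2 for IFI16 in both lines, and the bars of IFIT2, IFIT3, OAS1 and IRF7 are wide; GBP2 with SAHA is not drawn.

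With PMA the clearest difference was in GBP2, a GTPase of the guanylate-binding protein family that interferon-gamma induces in many cells. Jurkat cells with PMA had 43.3, 85.5 and 95.6 CPM of GBP2 in their 3 plates, and J-Lat A2 cells with PMA had 0, 17.7 and 68.4 CPM. With DMSO both lines had no count on any of 5 plates. Reads were found in 14 of 36 Jurkat wells with PMA (38.9%, 23.1 to 56.5), against 0 of 30 with DMSO, which allows a share of up to 10.0% (3 of the 30 wells, the limit used where no well had a read). In J-Lat A2 cells they were found in 5 of 79 wells with PMA (6.33%, 2.09 to 14.2), against 0 of 94 with DMSO, which allows up to 3.19%. A single well held 60.1% of the J-Lat A2 counts and the largest well held 23.2% of those in Jurkat cells. In wells with a read the median was 180 CPM in either line with PMA.

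Against an assumed floor of 3 counts over the DMSO group, GBP2 was at least 419-fold higher with PMA in J-Lat A2 cells (adjusted p = 0.0290, edgeR). On the same footing it was at least 338-fold higher in Jurkat cells (adjusted p = 0.0275, edgeR). These folds hold for read counts alone, since several reads may stem from 1 molecule. The shares of wells with a read, given above, allow a far smaller excess. GBP2 had almost no counts outside the PMA groups, so it passed the count filter only through the sums with PMA, where it was high. Its p-values therefore add no support beyond the counts themselves. By plate, GBP2 was higher with PMA on 2 of 3 plates in J-Lat A2 cells and on 3 of 3 in Jurkat cells. GBP2 was the only 1 of the 10 genes to pass with PMA in J-Lat A2 cells, where 1.98% of all genes tested did, and in Jurkat cells, where 2.27% did. Neither call held without plate P2458 (adjusted p = 0.0643 in J-Lat A2 cells and 0.0566 in Jurkat cells, edgeR). The fits without the second-batch DMSO sum of a line cannot judge its call. GBP2 had no count in the first batch and PMA was in the second alone, so the batch term can take up the whole difference. With the second batch alone and plates as units, the adjusted p was 0.0541 in J-Lat A2 cells and 0.0235 in Jurkat cells. No difference in the PMA effect between the lines passed for any of the 10 genes, where 0.0221% of all genes passed (edgeR; 0 at an unadjusted p under 0.05 and 0 by DESeq2), although the share of wells with a GBP2 read was higher in Jurkat cells. For GBP2 the fitted difference rests on DMSO groups without a count, and in the fit with equal weight per well it was -2.41 ± 0.14 (log2, J-Lat A2 minus Jurkat; adjusted p = 0.321, limma). The shares themselves were not tested.

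The other 9 genes had values with PMA that did not pass. IFIT1 had 16.3, 1.62 and 1.16 CPM in J-Lat A2 cells and 26.3, 23.4 and 31.6 CPM in Jurkat cells with PMA. In Jurkat cells these plates all lay above those with DMSO, listed above, yet the adjusted p was 0.322 (edgeR). IFI6 likewise had 64.05, 58.97 and 64.7 CPM in Jurkat cells with PMA, above each plate with DMSO, at a log2 change of 1.14 ± 0.46 (adjusted p = 0.302). It passed with the plates as units (adjusted p = 0.0338) and in the second batch alone (adjusted p = 0.0100). IFI16 had 249.4, 274.8 and 267.8 CPM in J-Lat A2 cells with PMA, below each plate with DMSO, and 491.0, 413.1 and 408.8 CPM in Jurkat cells, within the range of DMSO but lower than DMSO on each of the 3 shared plates. Their adjusted p-values were 0.322 and 0.706. IRF1 with PMA had 21.9, 47.6 and 48.03 CPM in J-Lat A2 cells and 54.5, 138.6 and 78.3 CPM in Jurkat cells, and both sets lay within the range of DMSO. ISG15 with PMA had 111.2, 82.7 and 86.5 CPM in J-Lat A2 cells, above each plate with DMSO (adjusted p = 0.553), and 117.8, 68.9 and 67.6 CPM in Jurkat cells.

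IFIT2 and IFIT3, partners of IFIT1 in the same protein complexes, lie beside it on chromosome 10 but were read in few wells. IFIT2 had reads in 5.19% of J-Lat A2 wells with SAHA, 12.7% with PMA and 7.45% with DMSO, and in 2.78%, 16.7% and 10.0% of Jurkat wells. Its plate sums ran from 0 to 19.4 CPM in J-Lat A2 cells with PMA or DMSO, and from 7.61 to 16.3 CPM in Jurkat cells with PMA, against 0 to 22.7 CPM with DMSO. In J-Lat A2 cells the 3 plates with PMA had 1.44, 19.4 and 8.42 CPM, against 12.3, 2.70, 0, 0 and 0 CPM with DMSO. The adjusted p of this difference was 0.460 (edgeR), and of the alternatives tried only the fit with plates as units gave one under 0.05 (0.0489). IFIT3 was read in 2.53% to 8.33% of the wells of any group. With DMSO a single well held all the IFIT3 counts of the Jurkat cells, which stood on 1 plate at 16.8 CPM.

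OAS1, which makes the oligoadenylates that activate RNase L, was read in 2.53% to 16.7% of wells, and its plate sums ran from 0 to 23.7 CPM with no difference that passed. IRF7, the factor best known for inducing type I interferon genes, was read in 24.1% of J-Lat A2 wells with PMA and 10.4% with SAHA, against 8.51% with DMSO, and in 9 of 36 Jurkat wells with PMA, 9 of 36 with SAHA and 5 of 30 with DMSO. Its plates had 2.69, 9.22 and 10.9 CPM in J-Lat A2 cells with PMA, against 0.312, 4.92, 0, 0 and 2.92 CPM with DMSO. Jurkat plates had 3.33, 13.3 and 5.66 CPM with PMA, against 0.884, 4.04, 0, 0 and 3.93 CPM with DMSO. On each of the 3 shared plates IRF7 was higher with PMA than with DMSO in both lines, and the adjusted p was 0.575 in J-Lat A2 cells and 0.634 in Jurkat cells (edgeR). At these low counts a change of moderate size in IFIT2, IFIT3, OAS1 or IRF7 was not detectable.

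**Figure D4:**
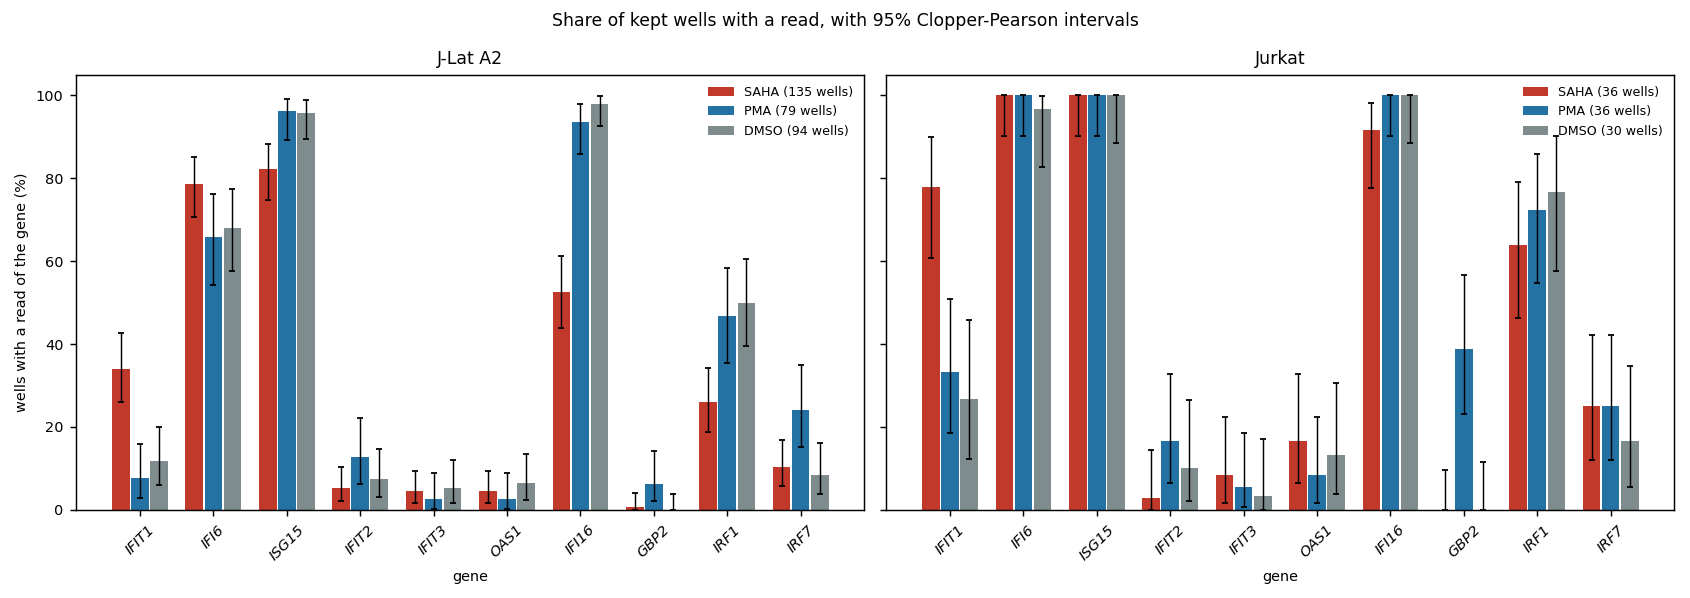
Share of kept wells with a read of each gene (bars from 0, percent) with 95% Clopper-Pearson intervals (counting error only), by agent in J-Lat A2 (left) and Jurkat cells (right). IFIT1 with SAHA and GBP2 with PMA stand above DMSO in both lines, and IFIT2, IFIT3 and OAS1 stay at or below 16.7% in every group.

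Set directly against SAHA in J-Lat A2 cells, PMA left IFIT1 lower and IFI16 and GBP2 higher. On the 3 shared plates IFIT1 had 16.3, 1.62 and 1.16 CPM with PMA, against 86.8, 53.96 and 44.6 CPM with SAHA, and the log2 change was -3.04 ± 0.66 (adjusted p = 0.0330, edgeR). IFI16 had a log2 change of 1.49 ± 0.23 (adjusted p = 0.00580). GBP2 had 1003 counts with PMA and 1 with SAHA, a ratio of levels of 1587 with a counting interval of 284 to 62737 (adjusted p = 0.0202, edgeR). Here too GBP2 entered the test only through the sums with PMA, so this p-value adds no support beyond the counts. These were 3 of the 10 genes, where 3.62% of all genes tested passed. IFIT1 did not pass without the second-batch sum with SAHA, with the second batch alone (adjusted p = 0.0770, edgeR) or with plates as units (0.0544). For GBP2 the fit without that sum cannot judge the call, since the first batch held no count of it. IFI6, with 36.9, 19.7 and 23.7 CPM with PMA, against 67.5, 73.01 and 60.997 CPM with SAHA on the shared plates, did not pass (log2 change -1.15 ± 0.47, adjusted p = 0.278) but did with plates as units (0.0300).

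With DMSO alone, 0 of the 10 genes passed the test between J-Lat A2 and Jurkat cells, where 0.398% of all genes tested did (edgeR). Only IFI16 had an unadjusted p under 0.05, and DESeq2 called 0. IFI16 averaged 441.4 ± 48.003 CPM in J-Lat A2 cells and 595.0 ± 29.3 CPM in Jurkat cells, IRF1 averaged 41.2 ± 0.677 and 74.1 ± 32.2 CPM, and IFIT1 averaged 8.68 ± 5.21 and 14.8 ± 8.69 CPM (SD, n = 2 batches each). Shares of wells with a read were lower in J-Lat A2 cells for several genes, among them IRF1 with 50.0%, against 76.7% in Jurkat cells. The level of IRF1 was lower in J-Lat A2 cells on each of the 5 plates, at a log2 change of -0.81 ± 0.37 (adjusted p = 0.542, edgeR; 0.254 with plates as units). Genes detected per well also differed, with medians of 5032 in J-Lat A2 and 6093 in Jurkat wells, and their part in these shares was not tested.

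Across the 6 groups, the order of mean level for IFIT1 was Jurkat with SAHA, J-Lat A2 with SAHA, Jurkat with PMA, Jurkat with DMSO, J-Lat A2 with DMSO and J-Lat A2 with PMA. The plates of the 2 SAHA groups overlapped each other and lay above those of all other groups. The plates of Jurkat cells with PMA lay above those with DMSO, and the last 3 groups overlapped. For IFI6 the order was Jurkat with SAHA, then Jurkat with PMA beside J-Lat A2 with SAHA, whose plates overlapped, and then Jurkat with DMSO, J-Lat A2 with PMA and J-Lat A2 with DMSO, each overlapping its neighbour. For IFI16 it was Jurkat with DMSO, J-Lat A2 with DMSO beside Jurkat with PMA, then J-Lat A2 with PMA, Jurkat with SAHA and J-Lat A2 with SAHA. The plates of J-Lat A2 cells with PMA overlapped with those of no other group for IFI16. GBP2 outside the groups with PMA had 1 count in all.

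The wider interferon pathway was taken from 8 lists, and all but 19 of their genes had enough counts to be tested. None of the 8 interferon genes listed, IFNB1 and IFNG among them, had a count in any group, where 3 counts over a group would be 0.0518 to 0.224 CPM. With SAHA 6 pathway genes rose, 13 fell and 84 did not pass in J-Lat A2 cells, and 6 rose, 7 fell and 90 did not pass in Jurkat cells. That is 5.83% higher and 12.6% lower in J-Lat A2 cells, against 3.53% and 4.90% of all genes tested, and 5.83% and 6.8% in Jurkat cells, against 1.84% and 2.37% of all genes. The median log2 change of the tested genes was -0.21 in J-Lat A2 cells, against 0.12 for all genes, and -0.06 in Jurkat cells, against 0.11 for all genes. With PMA 4 rose, 1 fell and 98 did not pass in J-Lat A2 cells, and 3 rose, 1 fell and 99 did not pass in Jurkat cells. These calls were 4.85% and 3.88% of the pathway genes, against 1.98% and 2.27% of all genes tested, so that in Jurkat cells the share was near that of all genes. The medians with PMA were 0.59 in J-Lat A2 cells, against 0.04 for all genes, and 0.54 in Jurkat cells, against 0.07.

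The calls on the pathway lists rested on few sums. When each of the 6 sums of the groups with both batches, or plate P2458, was left out in turn, 8 of the 19 calls with SAHA in J-Lat A2 cells passed every time (IFITM2, IFNGR1, MYD88, NMI, PSMB10, PSMB8, PSME1 and PTPN6), and the other calls lost significance at least once, at an adjusted p of up to 0.465. In Jurkat cells with SAHA 7 of 13 passed every time (GBP1, IFIH1, IFNGR1, NMI, PSMB10, PSMB8 and USP18). With PMA that was so of STAT3, 1 of 5 calls, in J-Lat A2 cells and of HLA-E, 1 of 4, in Jurkat cells. For PMA against SAHA 10 of 15 calls passed every time, and neither of the 2 calls between the lines with DMSO did (adjusted p of up to 0.384).

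**Figure D5:**
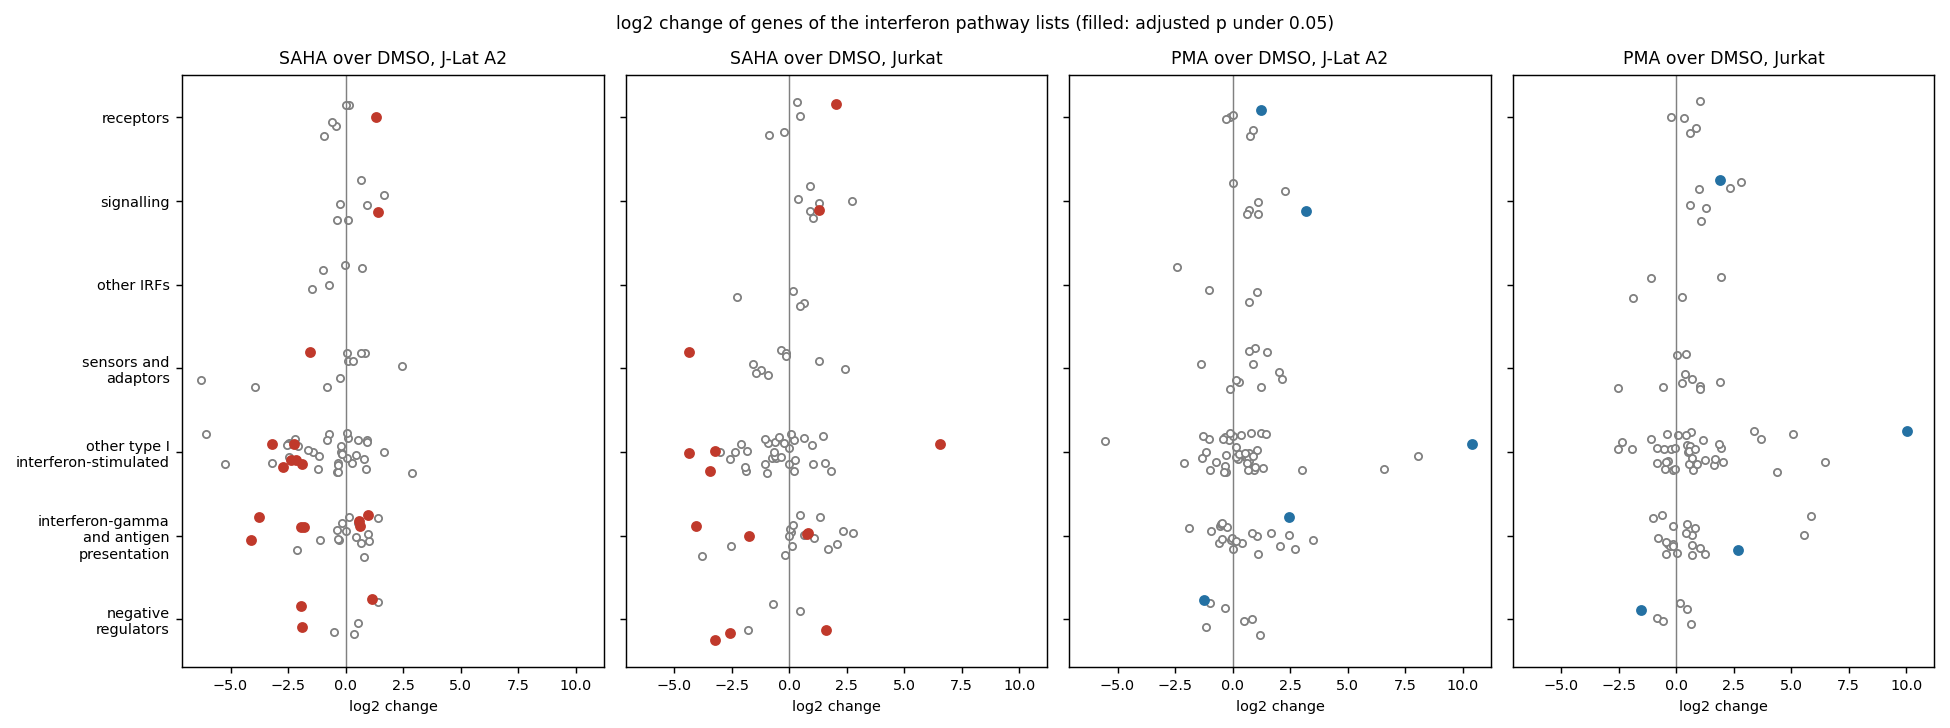
log2 change over DMSO of the tested genes of 7 interferon pathway lists (1 point per gene; filled points had an adjusted p under 0.05 by edgeR), for SAHA and PMA in each line. Genes without a count in 1 or both of the groups compared are not drawn (6 and 18 with SAHA, 5 and 11 with PMA, in J-Lat A2 and Jurkat cells), among them 2 that passed, MX2 with SAHA in J-Lat A2 cells and GBP1 with SAHA in Jurkat cells; filled points with SAHA lie on both sides of 0.

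Among receptors and signal transducers, IFNGR1, a chain of the interferon-gamma receptor, rose with SAHA to 162.7 ± 16.2 CPM in J-Lat A2 cells, against 64.3 ± 5.48 CPM with DMSO (SD, n = 2 batches). Its log2 change was 1.34 ± 0.20 there and 2.04 ± 0.24 in Jurkat cells, and 1.25 ± 0.24 with PMA in J-Lat A2 cells. The other 5 receptor chains did not pass in these comparisons. STAT3, which carries signals of several cytokines, rose with both agents in both lines, by 1.41 ± 0.21 and 1.29 ± 0.27 with SAHA and by 3.21 ± 0.27 and 1.92 ± 0.27 with PMA (log2) in J-Lat A2 and Jurkat cells. STAT2, IRF9, JAK1, JAK2 and TYK2 did not pass in any of these 4 comparisons. Of 9 other IRF genes and their partners 5 were tested, and none passed with either agent (edgeR; 1 with PMA in Jurkat cells at an unadjusted p under 0.05, and 0 by DESeq2). MYD88, an adaptor of Toll-like receptors, fell with SAHA in J-Lat A2 cells (-1.53 ± 0.27), and IFIH1, an RNA sensor, fell in Jurkat cells (-4.34 ± 0.84, with 26 counts against 346).

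Of 46 other type I interferon-stimulated genes, 44 were tested, and with SAHA 7 fell (15.9%, against 4.90% of all genes tested) and none rose (against 3.53%) in J-Lat A2 cells. They were NMI (-3.19 ± 0.25), IFITM2 (-2.74 ± 0.42), IFITM1 (-2.35 ± 0.45), LGALS3BP (-2.26 ± 0.50), EIF2AK2 (-2.14 ± 0.37), USP18 (-1.90 ± 0.35) and MX2. NMI, which binds STAT proteins, had 15.5 ± 1.59 CPM with SAHA, against 140.3 ± 5.50 CPM with DMSO. EIF2AK2 is the kinase PKR, USP18 removes ISG15 from proteins, and the IFITM proteins hinder virus entry. IFITM1 and IFITM2 are close paralogs, and how reads were split between them is not known. MX2, a factor that restricts HIV, had no count with SAHA, against 4.05 ± 2.86 CPM with DMSO. Against an assumed floor of 3 counts over the SAHA group it was at least 72.0-fold lower, in read counts alone. In Jurkat cells NMI (-3.44 ± 0.36), USP18 (-3.24 ± 0.52) and IFIH1 fell. OASL, a relative of OAS1, rose there to 40.4 CPM with SAHA, against 0.838 ± 1.19 CPM with DMSO (6.56 ± 1.38). The calls in Jurkat cells are 6.82% of the list lower and 2.27% higher, against 2.37% and 1.84% of all genes tested. OASL also stood higher with SAHA in J-Lat A2 cells, at 30.7 ± 2.63 CPM, against 4.69 ± 1.76 CPM with DMSO (SD, n = 2 batches each). It did not pass the test there. The median log2 change of the tested genes of this list was -0.98 in J-Lat A2 cells, against 0.12 for all genes, and -0.63 in Jurkat cells, against 0.11. With PMA only APOBEC3G, an enzyme that mutates HIV DNA, passed in either line. That was 2.27% of the list in each line, near the 1.98% and 2.27% of all genes tested in J-Lat A2 and Jurkat cells. DESeq2 called 0 genes of the list with PMA in J-Lat A2 cells and 4 in Jurkat cells. APOBEC3G had 8.75 CPM with PMA, against 1.26 ± 1.79 CPM with DMSO in J-Lat A2 cells. In Jurkat cells it had 32.1 CPM with PMA, against 6.60 ± 9.34 CPM with DMSO. The reads of it with DMSO came from 1 of 2 batches alone in each line.

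The interferon-gamma and antigen presentation list held genes that moved both ways with SAHA. The immunoproteasome subunits PSMB10 (log2 change -3.79 ± 0.32) and PSMB8 (-1.79 ± 0.18) fell in J-Lat A2 cells, as they did in Jurkat cells (-4.06 ± 0.46 and -1.76 ± 0.24). The proteasome activator genes PSME1 (0.98 ± 0.14) and PSME2 (0.60 ± 0.15) and B2M (0.57 ± 0.13), the light chain of MHC class I, rose in J-Lat A2 cells. PSME2 (0.82 ± 0.20) and B2M (0.76 ± 0.17) rose in Jurkat cells. The call on B2M in J-Lat A2 cells depended on the fit. With equal weight per well its change was -0.35, and it passed in 3 of the 7 fits without 1 sum or plate P2458 (adjusted p of up to 0.390). NLRC5, which activates MHC class I genes (-4.09 ± 1.09), and TAPBP, which loads peptides onto them (-1.94 ± 0.48), fell in J-Lat A2 cells. GBP1, a paralog of GBP2, had no count in Jurkat cells with SAHA and 542 with DMSO. Against an assumed floor of 3 counts over the SAHA group it was at least 259-fold lower, in read counts alone. HLA-E rose with PMA, by 2.47 ± 0.38 in J-Lat A2 cells and 2.71 ± 0.38 in Jurkat cells. Among negative regulators, the phosphatase gene PTPN6 fell with SAHA (-1.93 ± 0.32 and -2.58 ± 0.44 in J-Lat A2 and Jurkat cells), PIAS1 rose (1.13 ± 0.24 and 1.60 ± 0.30), and PTPN2 fell with PMA (-1.23 ± 0.24 and -1.51 ± 0.24).

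Set against SAHA in J-Lat A2 cells, PMA left 13 pathway genes higher and 2 lower (12.6% and 1.94%, against 2.25% and 1.37% of all genes tested). Those with the largest changes among genes counted in both groups were NLRC5 (5.74 ± 1.30), PSMB10 (3.78 ± 0.38), NMI (3.72 ± 0.30), GBP1 (3.57 ± 0.68), IFITM2 (3.46 ± 0.48) and PTPN6 (3.11 ± 0.40). PSME1 (-1.58 ± 0.19) and PSME2 (-1.05 ± 0.20) were lower with PMA. With DMSO, UBE2L6, an enzyme that attaches ISG15, was lower in J-Lat A2 than in Jurkat cells (-1.05 ± 0.17), as was STAT3 (-1.65 ± 0.22). These calls were 1.94% of the pathway genes, against 0.398% of all genes tested. For no pathway gene did a difference in the SAHA or PMA effect between the lines pass, where 0.00738% and 0.0221% of all genes tested did (edgeR). At such shares a list of this size would hold few calls or none. An unadjusted p under 0.05 was found for 8 and 6 of these genes, and DESeq2 called 2 and 1.

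By Spearman correlation of log2 CPM over the 24 plate sums, which share plates and depth, the genes most like IFIT1 were NOSIP (0.90), CYP51A1 (0.88) and PSMD13 (0.87). Those most like IFI6 were SMIM29 (0.89), SRP54 (0.86) and PSMD13 (0.86), and those most like IFI16 were RIOX2 (0.89), RSL1D1 (0.87) and HNRNPDL (0.87). GBP2 was most like ENPP3 (0.85), HDC (0.84) and KRT79 (0.84), and IRF1 was most like CASP8 (0.86), HDHD5 (0.81) and NUP50 (0.81). ISG15 was most like CBR3 (0.83), CD63 (0.77) and PPP1CA (0.75), and IRF7 was most like TTLL3 (0.82), TRAM2 (0.79) and OCLN (0.78). IFIT2 was most like CTSH (0.73), IFIT3 most like TMEM219 (0.76) and OAS1 most like RUFY3 (0.69), each with few reads. None of the 10 genes was among the 3 most like any other of them.

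In J-Lat A2 cells with SAHA, 5 wells had reads of both IFIT1 and IFIT2, of 46 and 7 wells with each, where 2.39 would be expected from their separate shares. No well had both IFIT2 and IFIT3, where 0.311 would be expected. IFIT1 and IFI6 were both read in 40 wells, where 36.1 would be expected, and 10 of the 14 Jurkat wells with a GBP2 read after PMA also had IRF1, where 10.1 would be expected. The median number of the 10 genes read per well was 3, 4 and 4 in J-Lat A2 cells with SAHA, PMA and DMSO, and 5, 5 and 4 in Jurkat cells.

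In GENCODE release 29 (GRCh38), all 10 genes are protein coding. IFIT2 (chr10:89283694-89309276), IFIT3 (chr10:89327894-89340971) and IFIT1 (chr10:89392546-89406486) lie in a row on the plus strand, and the annotated LIPA gene on the opposite strand overlaps all 3. GBP2 (chr1:89106132-89150456) overlaps the annotation of GBP7 on its own strand, and IRF1 (chr5:132481609-132490798) overlaps AC116366.3 on the opposite strand. The library kit is not stated to keep the strand, so reads in overlaps of opposite strands may not be told apart by strand. ISG15 (chr1:1001138-1014540), IFI6 (chr1:27666061-27672218), IFI16 (chr1:158999968-159055155), OAS1 (chr12:112906777-112933222) and IRF7 (chr11:612553-615999) overlap no other measured gene. Counts that were not whole, which shows reads shared between transcripts or genes, stood in 52 of 343 wells with IFI16, 27 of 200 with IRF1 and 11 of 331 with IFI6, and in at most 2 wells for each of the others.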

How the data were processed

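RNA of single sorted cells was primed with poly(T), copied with template switching, amplified by PCR without molecular identifiers and sequenced after Nextera tagging, per the labels' protocols. For each gene in each well the deposited file gives an expected count, which the authors made with Salmon 1.5.1 and alevin on GRCh38.p13, per the submitters' processing notes. Of the values above 0, 13.72% were not whole. No deposited column was left unused, and no 2 columns were identical. Gene symbols and positions came from GENCODE release 29 (20271 of 20302 features matched).

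Wells were kept with a count of at least 1/10 of their plate's median and at least 500 genes, which left 410 of 480. Plates P2449 and P2458 were taken as the first batch and P2769, P2770 and P2771 as the second, from the plate names and the 2 and 3 plates of the design text. Counts were summed per group and batch (9 sums), rounded, filtered by expression (13558 genes) and scaled by TMM. They were tested with edgeR 4.0.16 (R 4.3.3), by the quasi-likelihood F test with group and batch as terms and Benjamini-Hochberg adjustment at 0.05. The fit had 2 residual degrees of freedom and a prior of 7.75. A shift common to all groups of a batch is taken up by the batch term. The p-values thus measure how far differences between groups varied from batch to batch, in the groups with sums in both batches. The prior, drawn from all genes, had more weight in this spread than the gene's own residual. J-Lat A2 cells with PMA and Jurkat cells with SAHA or PMA had 1 sum each and were assumed to vary like the other groups. Nothing in the labels says whether batches came from separate cultures. Levels are CPM of sums and are not adjusted for batch, so their ratio can differ from the fitted log2 change.

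Single wells were described by shares with a read, with 95% Clopper-Pearson intervals (scipy 1.17.1), also after thinning to 100000 counts, which left out 23 wells (18, 2 and 3 of J-Lat A2 cells with SAHA, PMA and DMSO). A group without a count was given a floor of 3 counts over the group. Folds against that floor are in reads, several of which may stem from 1 molecule, so they do not bound the number of molecules or cells. Doublets were not called, since cells were sorted 1 to a well. The scripts were tested on simulated data. Alternatives were DESeq2 1.42.0, other size factors, no count filter, no batch term, plates as units, the second batch alone, all wells, equal weight per well (limma 3.58.1) and each sum left out. Leaving out plate P2458 was chosen after seeing the data. All 10 genes are described, and genes of the pathway lists are named where they passed the test. The 10 genes and the lists were chosen with earlier results of these data known, so no list serves as independent evidence.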

Additional observations from a re-analysis of the deposited data

Results flagged for a closer look

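In groups on 5 plates, 28 sets of plate sums were tested for a plate far from the others, and 4 were found, where chance gives about 1 in 20. That rate does not hold for nearly empty sets, in which a single well or count on 1 plate is found by construction, as for 2 of the 4 (IFIT3 in Jurkat cells and GBP2). IFIT2 in J-Lat A2 cells with DMSO stood at 12.33 CPM on plate P2449, against 0 to 2.70 CPM on the other plates. IFIT3 in the same group stood at 5.829 CPM on that plate, against 0 to 0.317 CPM. These sets were sparse too, with reads of IFIT2 and IFIT3 in 7 and 5 of 94 wells, so the rate is no guide for them either. IFIT3 in Jurkat cells with DMSO had 16.76 CPM on plate P2769, all of it from 1 well, and 0 on the other plates. GBP2 in J-Lat A2 cells with SAHA had 0.08354 CPM on plate P2770, which is 1 count, and 0 on the others. No difference in response between the lines passed the test for any of the 10 genes.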

How the results depend on the processing

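Single wells could not be paired, because the numbers in the labels are those of wells, and nothing ties a well of one group to a well of another. Groups do share plates, and plate was a term of both fits with plates as units; elsewhere batch was a term, save in the fit with no batch term. Of 1215 log2 changes under an alternative, 979 kept direction and side of the threshold, 210 lost significance, 10 gained it and 16 changed sign. With equal weight per well no gene passed in any comparison, so 0 of the 10 genes did with SAHA or PMA in either line or for PMA against SAHA, although 689 to 2618 genes had an unadjusted p under 0.05 and the lowest adjusted p was 0.0557. With plates as units 2 of the 10 genes passed with PMA in each line. With the second batch alone 0 did in J-Lat A2 cells and 2 in Jurkat cells, and without plate P2458 0 did in either line. As given above, a fit without the second-batch DMSO or SAHA sum cannot judge a call on GBP2 against that group. Leaving out 1 sum at a time gave 1 to 4 genes for SAHA and 0 to 1 for PMA in J-Lat A2 cells, 1 to 3 for SAHA and 0 to 1 for PMA in Jurkat cells, and 1 to 3 for PMA against SAHA.

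As a percentage of all genes tested, DESeq2 called 14.7 with SAHA and 5.47 with PMA in J-Lat A2 cells, 9.56 and 6.40 in Jurkat cells, 3.13 between the lines with DMSO, 7.79 for PMA against SAHA, and 0.288 and 0.266 for the differences between the lines in the SAHA and PMA effects. Plates as units gave 14.2 and 5.85 (SAHA and PMA, J-Lat A2), 11.4 and 7.02 (SAHA and PMA, Jurkat), 1.39 (lines), 9.16 (PMA against SAHA) and 0.0592 (SAHA effect between lines). The second batch alone gave 8.58, 4.37, 8.37, 5.51, 0.820, 6.98 and 0.0611 for these, and 0 for the PMA effect between lines. The SAHA effect between lines gave 0.0295 with no batch term and 0.0224 without plate P2458. Leaving out 1 sum gave 2.73 to 11.7 and 0.682 to 3.53 (SAHA and PMA, J-Lat A2), 2.09 to 6.44 and 0.880 to 4.20 (Jurkat), 0.282 to 1.19 (lines), and 0 to 0.120 and 0.0074 to 0.0751 for the differences in the SAHA and PMA effects.

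Signs changed for 1 call and for values that had not passed. With equal weight per well ISG15 with SAHA was -0.26 in J-Lat A2 and -0.15 in Jurkat cells, and -0.0052 to 0.21 in Jurkat cells with 1 sum left out. The call was B2M with SAHA in J-Lat A2 cells, which was -0.35 with equal weight. The difference between the lines in the SAHA effect on IFIT1 was -1.89 with equal weight and -0.84 to 0.51 with 1 sum left out, that on IFI16 -0.49 to 0.067, and that on IRF1 -0.69 to 0.36, with -0.017, -0.075, -0.14 and -0.16 under no count filter, no batch term, plates as units and no plate P2458. With equal weight the median of all genes moved by -0.24 for SAHA in J-Lat A2 cells. Shares moved most when all wells were used: 22.9% of J-Lat A2 wells with SAHA had a read of IFIT1 and 38.3% of IFI16. The cause of these changes was not tested, except that a sum left out removes samples. With 1 to 2 sums a group, and few reads of IFIT2, IFIT3, OAS1 and IRF7, moderate changes were not detectable.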
